A study of Homo sapiens with 12 samples.

Results

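H3K79me3, trimethylation of lysine 79 of histone H3, was compared over gene bodies between 2 mesenchymal and 2 epithelial lines of one colorectal cancer origin. The mesenchymal lines were SA, derived from soft agar colonies, and SPH, derived from colonospheres. The epithelial lines were DLD1, the parental line, and METS, derived from a lung metastasis of a xenograft, and all 4 grew in McCoy's 5A medium with serum. Each line gave 1 H3K79me3 library of the 12 libraries in the series, so a line stood for 1 replicate and n = 2 in each group. The 3 derivatives all descend from DLD1, and whether a derivative line is a clone or a pool is not given in the sources used here. The p-values therefore cover only the spread between these 4 related lines.

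The unit of comparison was the gene. Counts of the H3K79me3 regions lying wholly inside a gene body were summed, and gene bodies were the intervals of the H3K27me3 table on chromosomes 1 to 19 (hg19). Of 49993 distinct intervals, 12129 held a region and 6525 held 5 or more, and these 6525 were the genes tested. They had a median of 13 regions and at most 249, and they took up 125602 of the 157878 regions, or 79.6%. Summing brought the median count from 23 per region and line to 452 per gene and line. The intervals carry no gene names. Names were assigned by matching interval lengths and the spacing to neighbouring genes with RefSeq genes of GRCh38.p14, which named 5530 of the 6525. A name is thus an inference from the match, and 2400 of the genes share a region with an overlapping gene, whose signal cannot be told apart because ChIP reads carry no strand of transcription.

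H3K79me3 is written by DOT1L, the only known H3K79 methyltransferase in mammals, which travels with elongation factors of the AF9 and AF10 families. The mark spreads from the promoter-proximal part of transcribed genes into the body and is used as a readout of active transcription. The epithelial-mesenchymal transition, the state change after which the lines are labelled, is known for loss of E-cadherin and junction proteins and for gain of vimentin, fibronectin and N-cadherin under repressors such as ZEB1 and SNAI2.

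Library totals were 7273964 counts in SA, 6165169 in SPH, 7521451 in DLD1 and 6432882 in METS. A library total here is the sum of counts over the mark's listed regions, or for H3K27me3 over the intervals held, and not the number of reads sequenced. Values below are CPM, counts scaled to the library total. A gain or loss of the mark common to all regions would not show on this scale. A gene's CPM is the sum over its regions and is not divided by length.

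The labels were first set against marker genes. CDH1, which encodes E-cadherin, carried 80 regions with 682 CPM in SA and 840 CPM in SPH, against 857 CPM in DLD1 and 693 CPM in METS. The mesenchymal values lay within the epithelial range or just below it. The 5 of 8 epithelial markers that had a gene body summed to 1387 CPM in SA and 1554 CPM in SPH, against 1554 CPM in DLD1 and 1312 CPM in METS, and again the groups overlapped. Among 8 mesenchymal markers, 7 had a gene body, and VIM, ZEB1, ZEB2, FN1, CDH2, SPARC and SNAI2 held 0 regions. In a longer list of 26 mesenchymal genes, 22 held 0 regions and none reached 5. The region set is shared by the 4 lines, and how it was made is not given in the sources used here, so a gene without a region was not counted in any line and is not shown to lack the mark. Of 9 leukocyte, fibroblast and endothelial markers, 7 held 0 regions, and the sum was 2.61 and 1.78 CPM in SA and SPH, against 1.73 and 3.58 CPM in DLD1 and METS. Of the colon epithelium markers, CDX2 had 221 CPM in SA and 371 CPM in SPH, against 244 CPM in DLD1 and 260 CPM in METS, while VIL1 and KRT20 held 0 regions. CDH17 had 11.5 and 14.4 CPM in SA and SPH, against 10.1 and 4.20 CPM in DLD1 and METS, on only 3 regions. The 7 mesenchymal markers with a gene body thus gave no value that could separate the lines. The 4 genes of the longer list that held a region were not tested.

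No gene passed the test. By edgeR's quasi-likelihood test with Benjamini-Hochberg adjustment at 0.05, 0 of 6525 genes were higher and 0 were lower in the mesenchymal lines, a background of 0% in each direction. At an unadjusted p under 0.05 there were 202 genes in edgeR, of which 36 (0.552%) were higher and 166 (2.54%) were lower. DESeq2's Wald test gave 0 higher and 4 lower genes among 6515 with an adjusted p, or 0.0614%. The 4 are 3 loci, ARHGAP23, LINC02889 and PALM2AKAP2, the last counted over 2 intervals that hold the same 46 regions. Single regions gave 0 calls of 156119 in edgeR, with 4675 at an unadjusted p under 0.05, and 0 calls in DESeq2.

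The lines within a group differed as much as the groups did. The median absolute log2 difference over the 6525 genes was 0.14 between the mean of SA and SPH and the mean of DLD1 and METS. Within groups it was 0.28 between SA and SPH and 0.23 between METS and DLD1. Averaging over a pair narrows a difference, so single lines were also compared across the groups. SA differed from DLD1 by a median of 0.14, the smallest of the 6 pairs of lines, and SA differed from METS by 0.28. SPH differed from DLD1 and from METS by 0.24 each. SA thus lay nearer to its epithelial parent than to SPH. In 1008 of 6525 genes (15.4%) the difference between the groups was larger than both differences within them.

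**Figure D1:**
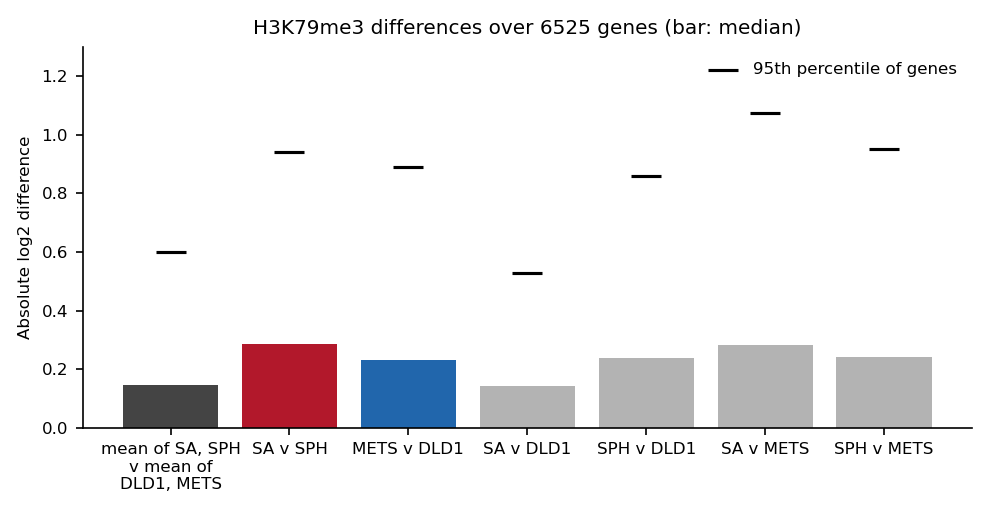
Absolute log2 differences in H3K79me3 over 6525 genes, as the median (bars) and the 95th percentile (black dashes), between the group means (dark grey), within each group (red and blue) and between single lines of different groups (light grey). The bar of SA against DLD1 stands at 0.14, below the bars of SA against SPH at 0.28 and METS against DLD1 at 0.23.

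Both mesenchymal lines lay above both epithelial lines in 552 genes (8.46%) and below both in 1214 genes (18.6%). The groups were at least 1.5-fold apart, with 0.5 CPM added to each value, in 5 genes above (0.0766%) and 47 genes below (0.72%), the 47 being 46 distinct sets of values because PALM2AKAP2 was counted over 2 intervals. The 5 above were UGT8, SMAP2, TMEM45B and ARHGAP18, described below, and WASHC1, which has near-identical copies and only 1.10 and 0.973 CPM in SA and SPH, against 0.399 and 0.311 CPM in DLD1 and METS. With TMM factors (trimmed mean of M-values, a scaling that sets the bulk of genes level) the split was 9 above and 35 below. The median log2 fold change of all genes was -0.05 with library totals and 0.03 with TMM factors. Genes with fewer counts leaned to the lower side, with a median of -0.17 in the lowest of 3 equal classes by mean count, -0.06 in the middle class and 0.01 in the highest. The 47 genes below had a median level of 20.5 CPM and the 5 above one of 21.7 CPM, against 66.6 CPM over all 6525. The part of depth in the excess of lower genes was not tested.

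The 12 lower genes with the smallest unadjusted p are described next. None passed edgeR's adjustment, and since they were picked by this contrast their values are descriptive. They were 2.04 to 5.10-fold lower, and 289 of their 291 regions had a lower mesenchymal than epithelial mean. The median gene had 69.4% of its regions on its own side, but these 12 were picked by the sum of the same regions.

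PALM2AKAP2 and ARHGAP23 had the smallest p of the 12 and are given first, with the phosphatase PTPRF. PALM2AKAP2 (chr9:112542589-112934792), which joins a paralemmin with a protein kinase A anchoring protein, had 47.0 CPM in SA and 38.1 CPM in SPH, against 94.4 CPM in DLD1 and 107 CPM in METS. Its log2 fold change was -1.24 (SE 0.22, unadjusted p = 0.000769 in edgeR), and DESeq2's adjusted p was 0.0324. The first of its 46 regions lay 149 kb into the interval, so the signal lies away from its start. ARHGAP23 (chr17:36584662-36668628), a GTPase-activating protein, had 12.6 CPM in SA and 11.4 CPM in SPH, against 28.9 CPM in DLD1 and 52.7 CPM in METS. The groups were 2.28-fold apart, and DESeq2's adjusted p was 0.0324. PTPRF (chr1:43990858-44089343), the receptor tyrosine phosphatase LAR found at cell contacts, had 30.8 and 48.7 CPM in SA and SPH, against 81.9 and 91.2 CPM in DLD1 and METS. Here SPH was the higher of the mesenchymal lines, unlike in most of the 12.

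The set also holds 4 genes known as transcription or chromatin regulators. FOXO3 (chr6:108881038-109005977), a forkhead factor held in the cytoplasm by AKT, had 47.7 CPM in SA and 38.6 CPM in SPH, against 81.1 CPM in DLD1 and 106 CPM in METS. The deficit ran along the whole gene, with 50 of 51 regions lower and log2 ratios of -1.15 before and -1.01 after the gene's midpoint. JDP2 (chr14:75894419-75940814), a repressor of the AP-1 family, had 9.49 and 9.57 CPM in SA and SPH, against 20.5 and 27.4 CPM in DLD1 and METS. A pair of Polycomb genes is in the set. JARID2 (chr6:15246527-15522252), an accessory subunit of PRC2, had 35.5 and 31.0 CPM in SA and SPH, against 59.0 and 83.9 CPM in DLD1 and METS. The readthrough interval COMMD3-BMI1 (chr10:22605317-22618471), which holds part of BMI1 of PRC1, had 10.4 and 5.35 CPM in SA and SPH, against 20.7 and 23.0 CPM in DLD1 and METS. In all 4 genes both mesenchymal lines lay below both epithelial lines, by 1.66 to 2.14-fold.

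The other 5 genes follow. LGMN (chr14:93170152-93215047), the lysosomal protease legumain, showed the widest fold but the lowest counts, with 3.02 and 1.78 CPM in SA and SPH, against 7.05 and 18.0 CPM in DLD1 and METS. Its 9 regions averaged 50.5 counts per line in all. SCD5 (chr4:83550692-83720010), a stearoyl-CoA desaturase, had 9.07 and 6.81 CPM in SA and SPH, against 16.2 and 31.6 CPM in DLD1 and METS. The noncoding LINC02889 (chr7:17503069-17598533) had 38.2 and 21.4 CPM in SA and SPH, against 65.5 and 139 CPM in DLD1 and METS, and DESeq2's adjusted p was 0.0446. METS stood well above DLD1 at each of these 3 genes. MCTP2 (chr15:94774767-95023632), a membrane protein with C2 domains, had 12.8 and 13.8 CPM in SA and SPH, against 25.5 and 34.8 CPM in DLD1 and METS. C1orf116 (chr1:207191866-207206101), an androgen-regulated gene of epithelia, had the tightest groups, with 23.5 and 23.8 CPM in SA and SPH, against 47.2 and 49.4 CPM in DLD1 and METS. Its log2 fold change was -1.03 (SE 0.23, unadjusted p = 0.00248 in edgeR).

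The 12 higher genes with the smallest unadjusted p were 1.58 to 2.39-fold higher, and 314 of their 336 regions had the higher mesenchymal mean. None passed edgeR's adjustment either, and they too were picked by the sum of these regions. UGT8 (chr4:115519611-115599380), the ceramide galactosyltransferase of glycolipid synthesis, had 29.1 CPM in SA and 31.0 CPM in SPH, against 14.2 CPM in DLD1 and 12.4 CPM in METS. Its log2 fold change was 1.17 (SE 0.25, unadjusted p = 0.0022 in edgeR), with 7 of 7 regions higher. SMAP2 (chr1:40810522-40888998), a GTPase-activating protein for Arf, had 23.4 and 27.4 CPM in SA and SPH, against 11.04 and 11.5 CPM in DLD1 and METS. Within each group the lines of these 2 genes lay close together, and the groups were 2.05 and 2.03-fold apart.

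ARHGAP18 and SLC12A2 stood out by level. ARHGAP18 (chr6:129897277-130031370), another GTPase-activating protein, had 1137 CPM in SA and 1350 CPM in SPH, against 715 CPM in DLD1 and 358 CPM in METS. All 63 of its regions had the higher mesenchymal mean, and 98.2% of its counts lay before the gene's midpoint. SLC12A2 (chr5:127419458-127525380), the sodium-potassium-chloride cotransporter of the basolateral membrane, had 1195 and 1084 CPM in SA and SPH, against 800 and 525 CPM in DLD1 and METS. Both genes were at least 6.64 CPM per kb, where the median of all genes was 1.72 CPM per kb. In both, METS was the lowest line and DLD1 lay between METS and the mesenchymal lines.

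The other higher genes were TMEM45B, BPNT2 (a Golgi phosphatase of nucleotide by-products), ZNF680 (a zinc finger protein), ARID5B (an ARID-domain DNA-binding protein), DPYSL2 (a microtubule-binding protein), SYBU (a kinesin linker) and 2 intervals given by position, chr14:54235660-54317600 and chr1:219858769-220131989. TMEM45B (chr11:129685714-129729898) had 31.3 and 35.4 CPM in SA and SPH, against 18.9 and 8.86 CPM in DLD1 and METS, the largest fold of the 12. The remaining 7 were 1.58 to 1.76-fold higher. In none of the 24 genes did the groups overlap, which follows from how they were chosen.

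**Figure D2:**
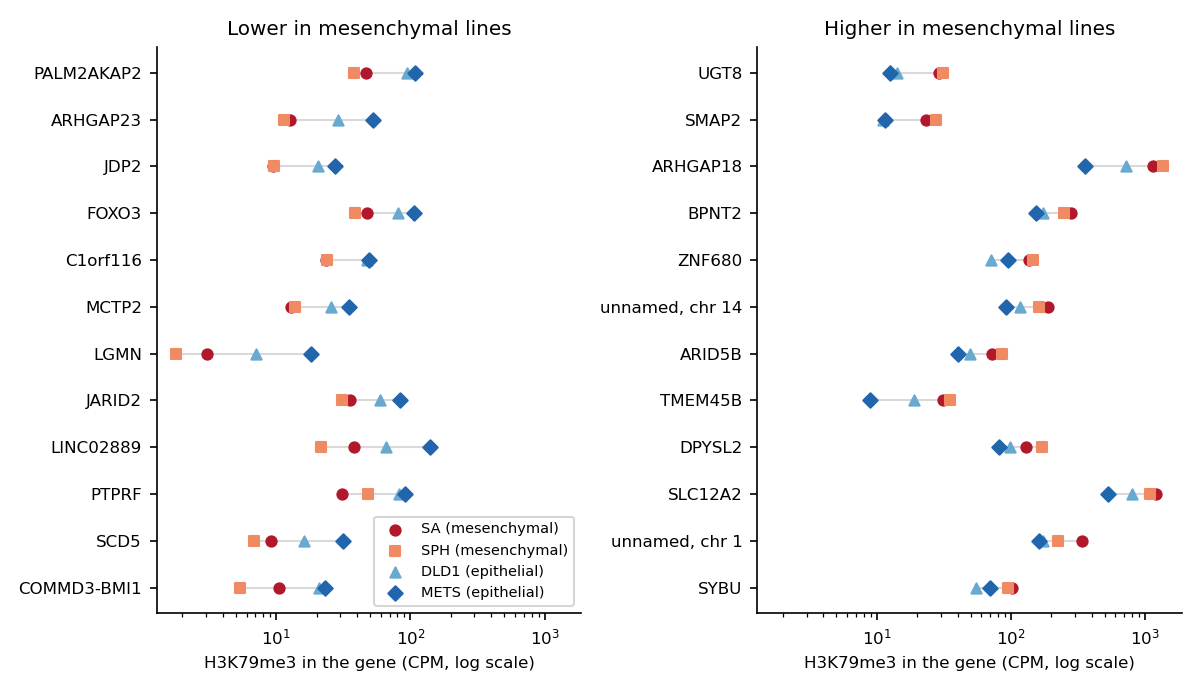
H3K79me3 in each line (CPM, log axis) at the 12 lower and the 12 higher genes with the smallest unadjusted p, with mesenchymal lines in red and orange and epithelial lines in blue. Every gene shows both mesenchymal symbols on one side of both epithelial symbols, and at ARHGAP18 the values are 1137 and 1350 CPM in SA and SPH, against 715 and 358 CPM in DLD1 and METS.

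The 250 bases before the RefSeq start are printed for 4 genes that the results turn on, the tightest lower gene (C1orf116), the junction gene OCLN described below, and 2 higher genes. Capitals mark CACCTG or its reverse complement CAGGTG, the E-box that repressors such as ZEB1 and SNAI2 are known to bind. All are RefSeq sequences on GRCh38.p14, written 5′ to 3′ on the gene's strand, from chr1:207032757-207033006 (minus strand), chr5:69492297-69492546 (plus strand), chr4:114598152-114598401 (plus strand) and chr6:129710178-129710427 (minus strand).
C1orf116: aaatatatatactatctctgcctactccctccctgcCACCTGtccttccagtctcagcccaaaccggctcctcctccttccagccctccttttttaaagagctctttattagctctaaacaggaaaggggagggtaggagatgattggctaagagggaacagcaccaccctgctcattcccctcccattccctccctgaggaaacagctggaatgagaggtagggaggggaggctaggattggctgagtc
OCLN: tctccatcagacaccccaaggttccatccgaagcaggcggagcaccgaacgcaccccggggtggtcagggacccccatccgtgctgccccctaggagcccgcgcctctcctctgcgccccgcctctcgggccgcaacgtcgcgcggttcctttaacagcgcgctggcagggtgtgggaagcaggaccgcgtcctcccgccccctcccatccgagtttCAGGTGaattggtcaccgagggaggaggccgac
UGT8: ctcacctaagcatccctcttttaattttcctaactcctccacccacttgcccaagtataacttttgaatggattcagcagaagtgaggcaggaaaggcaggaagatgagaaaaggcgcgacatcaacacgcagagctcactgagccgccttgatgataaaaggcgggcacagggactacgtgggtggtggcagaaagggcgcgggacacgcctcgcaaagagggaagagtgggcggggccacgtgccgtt
ARHGAP18: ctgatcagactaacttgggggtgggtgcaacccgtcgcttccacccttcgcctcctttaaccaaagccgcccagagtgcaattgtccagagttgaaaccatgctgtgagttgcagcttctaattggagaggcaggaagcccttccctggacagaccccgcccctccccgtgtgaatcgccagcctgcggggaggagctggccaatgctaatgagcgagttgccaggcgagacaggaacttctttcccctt
Of 35116 RefSeq promoters of the same length, 17.5% hold the motif on either strand. It was found in 1 of the 11 lower genes with a promoter sequence (C1orf116), in 0 of the 7 higher genes with one, and at OCLN. It was absent at IGF2BP2, a lower gene described below. The lower genes printed are thus those that hold the motif, while only 9.09% of the 11 hold it. A match is a description of these letters only.

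Longer genes allow a view along the body. IGF2BP2 (chr3:185361527-185542844), an RNA-binding protein that stabilises messenger RNAs, was named after its values were seen. It had 459 CPM in SA and 294 CPM in SPH, against 705 CPM in DLD1 and 691 CPM in METS. Its log2 fold change was -0.89 (SE 0.24, unadjusted p = 0.00772 in edgeR), and all 127 of its regions had the lower mesenchymal mean. The antisense gene IGF2BP2-AS1 shares regions with it and had 25.8 and 21.7 CPM in SA and SPH, against 56.1 and 58.1 CPM in DLD1 and METS, on 15 regions that cannot be assigned to either strand. Taken alone, the strongest region of each of the 24 genes and of IGF2BP2 had an adjusted p of 1 in edgeR. At FOXO3 the strongest region (chr6:108931585-108932011) held 16 and 9 counts in SA and SPH, against 27 and 20 counts in DLD1 and METS, which shows how few reads stand behind 1 region.

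**Figure D3:**
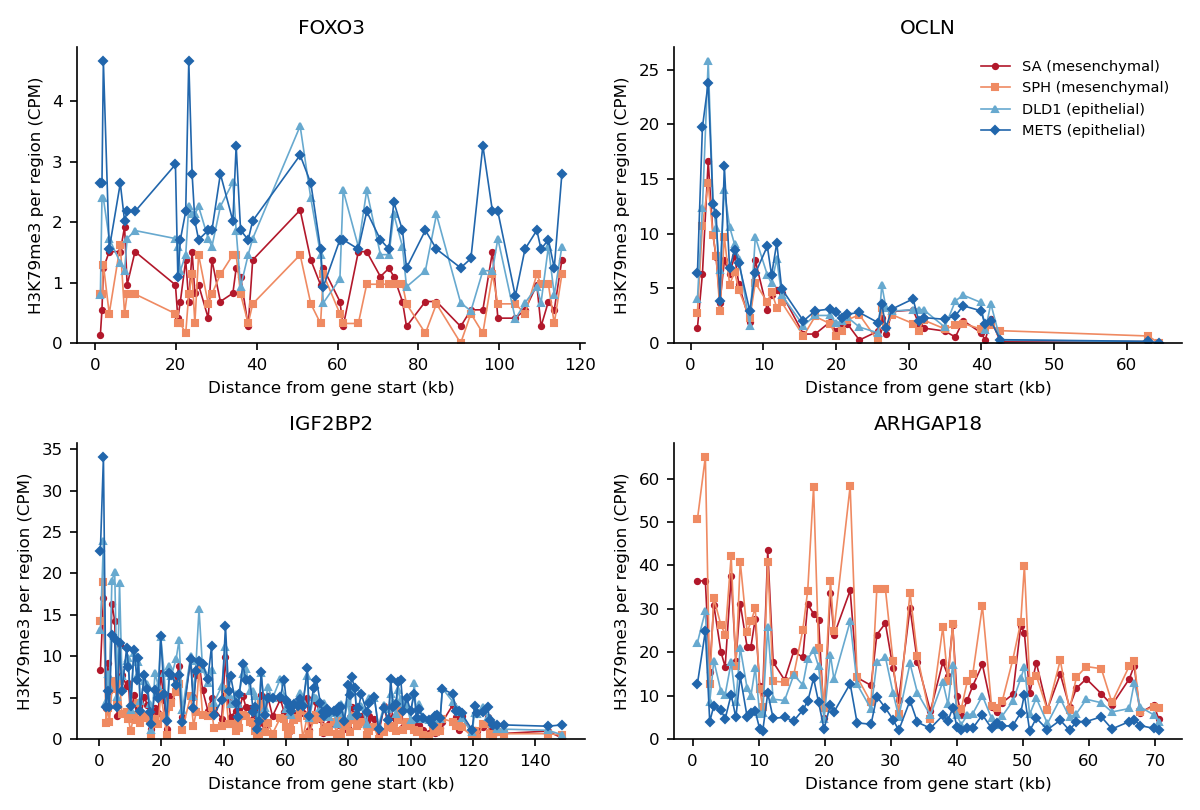
H3K79me3 per region (CPM) against distance from the gene start (kb) at FOXO3, OCLN, IGF2BP2 and ARHGAP18 in the 4 lines. At FOXO3, OCLN and IGF2BP2 the red and orange lines run below the blue ones over most regions, and at ARHGAP18 they run above.

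Among junction and adhesion genes, occludin was the one with an unadjusted p under 0.05. Of 16 such genes tested, 10 had negative and 6 positive log2 fold changes, with a median of -0.03 beside -0.05 over all genes, and 0 passed. Over the 6524 genes that also had H3K27me3 counts, H3K79me3 was negative at 3946 and positive at 2569. Sign counts of this list and the following lists stand beside that uneven split. OCLN (chr5:68788119-68853931), the tight junction protein, had 129 CPM in SA and 133 CPM in SPH, against 203 CPM in DLD1 and 208 CPM in METS. Its log2 fold change was -0.65 (SE 0.18, unadjusted p = 0.00813 in edgeR), with 36 of 39 regions lower. The lines of each group lay within a few CPM of each other. An unnamed interval, chr5:68773299-68798293, overlaps the start of OCLN and shares its first 12 regions. Those regions had 82.5 and 83.05 CPM in SA and SPH, against 125 and 127 CPM in DLD1 and METS. Most of the signal counted for OCLN thus cannot be assigned to either interval. PRSS8, the serine protease prostasin, had 7.97 and 17.8 CPM in SA and SPH, against 19.3 and 25.6 CPM in DLD1 and METS. PKP2, a desmosomal plaque protein, leaned the other way, with 314 and 333 CPM in SA and SPH, against 313 and 157 CPM in DLD1 and METS. Only METS stood apart at PKP2.

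The factors that hold epithelial identity showed no common direction. Of 10 epithelial transcription and splicing regulators, 6 were positive and 4 negative, with a median of 0.09. OVOL1, a repressor of mesenchymal genes, had 18.3 and 27.2 CPM in SA and SPH, against 33.0 and 35.0 CPM in DLD1 and METS. RBM47, an epithelial splicing regulator, had 287 and 350 CPM in SA and SPH, against 281 and 230 CPM in DLD1 and METS. GRHL2, which keeps CDH1 active, had 503 and 461 CPM in SA and SPH, against 464 and 347 CPM in DLD1 and METS, and its groups overlapped.

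Of 13 transition-driving transcription factors with a gene body, 4 had 5 or more regions, SOX4, RUNX2, TCF3 and HMGA2, and the groups overlapped at each. Their median was -0.15. HMGA2, an architectural chromatin protein, had 552 and 271 CPM in SA and SPH, against 515 and 361 CPM in DLD1 and METS. RUNX2, a Runt-family factor, had 1778 and 1274 CPM in SA and SPH, against 1891 and 1640 CPM in DLD1 and METS. These 2 genes differed more between SA and SPH than between the groups.

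The intestinal identity factors GATA6, CDX2 and FOXA1 had a median of 0.23, all 3 positive, and overlapped between groups. GATA6, a zinc finger factor of endodermal epithelia, had 1065 and 1208 CPM in SA and SPH, against 1097 and 795 CPM in DLD1 and METS. The keratins KRT8, KRT18 and KRT19, tested as differentiation genes, had a median of 0.01 and overlapped too.

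Signalling genes gave similar counts on both sides. Of 14 genes of the Wnt pathway and the crypt, 7 were positive and 7 negative, and of 13 genes of the TGF-beta and BMP pathway 7 were positive and 6 negative, with medians of 0.02 and 0.06. TGFBR2, the type II receptor for TGF-beta, had 1437 CPM in SA and 1206 CPM in SPH, against 1143 CPM in DLD1 and 682 CPM in METS, with an unadjusted p of 0.0919 in edgeR. RNF43, the ubiquitin ligase that removes Wnt receptors, had 2590 and 2515 CPM in SA and SPH, against 2499 and 1277 CPM in DLD1 and METS. TCF7, a Wnt effector, had 13.6 and 26.9 CPM in SA and SPH, against 24.9 and 43.5 CPM in DLD1 and METS. As at PKP2, the difference at RNF43 rested on METS.

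Genes of integrins, laminins and the actin cytoskeleton had the lowest median of the lists, -0.15 like that of the transition factors. Of the 19 tested, 13 were negative, the sign that most genes had. ACTN1, which cross-links actin, had 152 and 119 CPM in SA and SPH, against 182 and 259 CPM in DLD1 and METS, with a log2 fold change of -0.71 (SE 0.24, unadjusted p = 0.0222 in edgeR). TPM1, a tropomyosin, had 77.1 and 67.2 CPM in SA and SPH, against 120 and 88.5 CPM in DLD1 and METS. ITGB4, the integrin of hemidesmosomes, had 43.3 and 79.3 CPM in SA and SPH, against 60.2 and 119 CPM in DLD1 and METS, so that its groups overlapped.

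The genes of the H3K79 methylation machinery were nearly level. DOT1L had 393 and 608 CPM in SA and SPH, against 450 and 547 CPM in DLD1 and METS, a log2 fold change of 0.01. Of 14 genes tested, 10 were positive and 4 negative, with a median of 0.03. AFF1, of the super elongation complex, had 228 and 187 CPM in SA and SPH, against 165 and 145 CPM in DLD1 and METS, and did not overlap. ELL2, an elongation factor, had 6.19 and 6.49 CPM in SA and SPH, against 8.24 and 10.9 CPM in DLD1 and METS. Among 8 genes used by every cell, 4 were positive and 4 negative, with a median of -0.07. RPLP0, a ribosomal protein gene, had 114 and 141 CPM in SA and SPH, against 115 and 110 CPM in DLD1 and METS.

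**Figure D4:**
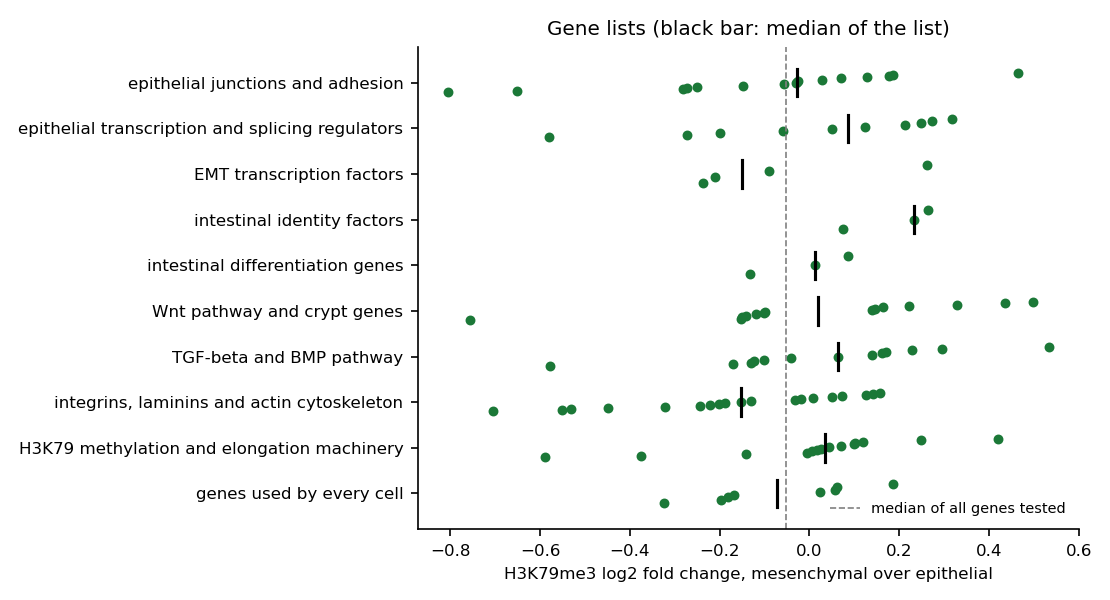
Log2 fold changes in H3K79me3 (mesenchymal over epithelial) of the tested genes of each list (points), the list's median (black bar) and the median of 6525 genes (dashed line at -0.05). List medians run between -0.15 and 0.23, and points of most lists fall on both sides of 0.

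Leaving out 1 line at a time showed what the spread within the groups held. Without SA or without SPH edgeR called 0 genes, with 303 and 134 at an unadjusted p under 0.05. Without DLD1 it called 18 higher and 75 lower genes (0.276% and 1.15%), with METS alone as the epithelial side and assumed to vary like the mesenchymal pair. Of the 24 genes above, 10 of the 12 lower and 3 of the 12 higher were among these calls. Without METS it called 5 higher and 3 lower genes (0.0766% and 0.046%), none of them among the 24. The genes named in the following paragraph were picked after their values were seen. The calls it counts were made from METS against SA and SPH. METS lying outside SA and SPH at these genes thus follows from the selection. Picking genes for low or high SA and SPH also favours DLD1 lying on the METS side of them. Shares over all genes were not counted for either, so neither count is support from DLD1.

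In all 93 calls made without DLD1, METS lay outside the range of SA, SPH and DLD1, and in 40 of the 75 lower and 15 of the 18 higher genes by 2-fold or more. DLD1 lay on the METS side of the mesenchymal mean in 63 of the 75 lower and 11 of the 18 higher genes. MTSS1, an actin-binding scaffold of cell edges, had 3.85 and 1.95 CPM in SA and SPH, against 2.26 CPM in DLD1 and 33.7 CPM in METS, and edgeR's adjusted p without DLD1 was 2.84e-13. TFAP2A, a transcription factor of ectodermal epithelia, had 20.8 and 11.2 CPM in SA and SPH, against 26.2 CPM in DLD1 and 81.8 CPM in METS. At both, METS alone was high. GRB10, an adaptor of the insulin receptor, had 148 and 53.5 CPM in SA and SPH, against 167 CPM in DLD1 and 428 CPM in METS. MUC5AC, a secreted gastric mucin, had 7.56 and 5.68 CPM in SA and SPH, against 9.44 CPM in DLD1 and 37.9 CPM in METS. The opposite order was seen at EHF, an epithelial ETS factor, with 79.7 and 118 CPM in SA and SPH, against 143 CPM in DLD1 and 20.8 CPM in METS. MET, the receptor of hepatocyte growth factor, had 99.8 and 92.1 CPM in SA and SPH, against 64.1 CPM in DLD1 and 22.7 CPM in METS. ACSL5, an acyl-CoA synthetase, had 73.0 and 61.6 CPM in SA and SPH, against 90.01 CPM in DLD1 and 10.1 CPM in METS. At EHF and ACSL5 DLD1 was the highest line, and with all 4 lines their log2 fold changes were 0.27 and 0.42.

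ZNF141 and MGST1 were called lower both without DLD1 and without METS. ZNF141, a zinc finger repressor, had 11.1 CPM in SA and 0.973 CPM in SPH, against 26.5 CPM in DLD1 and 42.6 CPM in METS. MGST1, a microsomal glutathione transferase, had 3.71 CPM in SA and 0.487 CPM in SPH, against 10.6 CPM in DLD1 and 12.3 CPM in METS. SPH was close to 0 at both, and SA lay between SPH and the epithelial lines. LINC01923 turned its direction with the line left out. It had 5.64 CPM in SA and 46.7 CPM in SPH, against 4.39 CPM in DLD1 and 145 CPM in METS, and its log2 fold change was 2.56 without METS and -2.48 without DLD1.

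H3K4me3 and H3K27me3 at the same genes are separate readouts that did not choose the members. H3K4me3, the mark of active promoters, was summed within 2 kb of the gene. Over all gene intervals edgeR called 0% higher and 0.00566% lower. At the genes described here it called 0 of 6382 for H3K4me3 (0% in each direction, 739 at an unadjusted p under 0.05), DESeq2 not being run on this mark. H3K27me3, the Polycomb mark, gave 6 higher and 4 lower of 6524 in edgeR (0.092% and 0.0613%, beside 0.331% and 0.292% over all gene intervals), and with TMM factors 8 higher and 2 lower. At the 24 genes, 0 were called for either mark. H3K4me3 had the sign of H3K79me3 at 5 of 11 lower and 4 of 11 higher genes that had it, with medians of 0.01 and -0.05, where 55.8% of all genes were positive. C1orf116 had 35.7 and 47.0 CPM of H3K4me3 in SA and SPH, against 38.2 and 37.8 CPM in DLD1 and METS. H3K4me3 overlapped between the groups at a gene where H3K79me3 did not. H3K27me3 had the opposite sign at 10 of 12 lower and 11 of 12 higher genes, with medians of 0.10 and -0.22, beside -0.14 over all genes. Since 82.4% of all 6524 genes were negative for H3K27me3 and 17.6% positive, the negative sign at 11 of the 12 higher genes is near the background. Across genes the log2 fold change of H3K79me3 had a Pearson r of 0.22 with that of H3K4me3 (6382 genes) and of -0.23 with that of H3K27me3 (6524 genes). Genes are not independent replicates, and the 3 marks come from the same 4 lines.

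**Figure D5:**
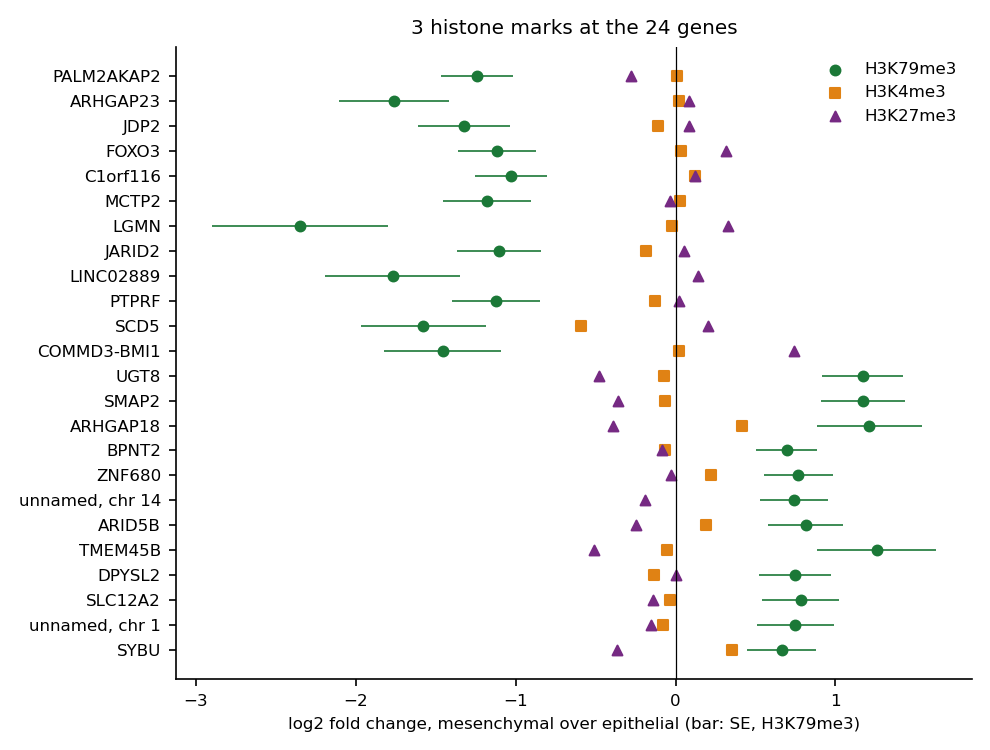
Log2 fold changes (mesenchymal over epithelial) of H3K79me3 with its SE, H3K4me3 and H3K27me3 at the 24 genes. H3K79me3 lies between -2.35 and 1.26, while the H3K4me3 and H3K27me3 symbols of most genes gather near 0.

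The 4 genes with lower H3K27me3 were RBM47, SEM1, LOC101928236 and the interval chr7:76139745-76648340, and the 6 with higher H3K27me3 included TFAP2A-AS1, FOXP1 and FSCN1. Values are given for only some of them. At chr7:76139745-76648340 both marks were lower. H3K27me3 was 68.3 and 52.2 CPM in SA and SPH, against 146 and 96.3 CPM in DLD1 and METS. H3K79me3 was 113 and 98.5 CPM in SA and SPH, against 160 and 164 CPM in DLD1 and METS, without overlap. TFAP2A-AS1 lies inside the TFAP2A interval, and the signal of its 7 regions cannot be told from that of TFAP2A. H3K27me3 there was 10.2 and 12.1 CPM in SA and SPH, against 8.59 and 1.73 CPM in DLD1 and METS (log2 fold change 1.15, edgeR adjusted p = 0.0378). H3K79me3 on those regions was 7.15 and 3.24 CPM in SA and SPH, against 10.6 and 50.5 CPM in DLD1 and METS. METS held the least H3K27me3 and the most H3K79me3. FOXP1, a forkhead factor, had 436 and 523 CPM of H3K27me3 in SA and SPH, against 262 and 159 CPM in DLD1 and METS (edgeR adjusted p = 2.16e-05). Its H3K79me3 was 6.05 and 2.43 CPM in SA and SPH, against 4.39 and 17.3 CPM in DLD1 and METS, so the groups overlapped on H3K79me3. RBM47 had 44.6 and 35.0 CPM of H3K27me3 in SA and SPH, against 115 and 45.9 CPM in DLD1 and METS (edgeR adjusted p = 0.0127). DLD1 alone was high there. At FSCN1, which bundles actin, H3K27me3 was 11.3 and 9.36 CPM in SA and SPH, against 3.65 and 5.96 CPM in DLD1 and METS, while H3K79me3 overlapped with 21.3 and 40.9 CPM in SA and SPH, against 33.5 and 19.7 CPM in DLD1 and METS.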

How the data were processed

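Per the labels, chromatin was precipitated with a Diagenode iDeal kit. The files deposited by the authors give whole-number read counts in the same regions for the 4 lines of a mark, with no normalization, as judged from their values. Positions are on hg19 per the submitters' processing notes. Alignment, region calling and counting are not given in the sources used here. The H3K27me3 table was held in part: its last line states that 7773 rows were skipped. H3K79me3 counts were summed over regions wholly inside an interval, and intervals with 5 or more regions were kept. Intervals were named by length and spacing to RefSeq genes of GRCh38.p14, with mutual best matches whose spans agreed by at least 0.5, a limit lowered after seeing how many list genes matched. No coordinate of that build stands for an interval. The agreement was under 0.75 for PALM2AKAP2, ZNF680, RUNX2, CDX2 and FOXA1. edgeR 4.0.16 (R 4.3.3) fitted library totals without covariates, with Benjamini-Hochberg adjustment over all genes and a threshold of 0.05. Each SE was derived as the absolute log2 fold change divided by the square root of edgeR's quasi-likelihood F statistic. DESeq2 1.42.0, TMM factors, other filters and leaving out each line were alternatives. After the fits, edgeR was run on simulated counts with a spread common to all features, and changed features had at least the median count. Of 100 genes changed 2-fold it recovered 54, and of 100 changed 4-fold it recovered 100, with 8 false calls. Of 100 regions changed 2-fold and 100 changed 4-fold it recovered 0 and 59, with 7 false calls. An uncalled gene is thus not shown to be unchanged. Named genes were the 12 each way with the smallest unadjusted p, since none was called, and up to 4 per list. Overlapping rows were reduced to the one with the most regions. The members, lists and motif were chosen with earlier results of these data known. Intervals on chromosomes 20 to 22, X, Y and MT were not analysed here. A gene of the lists is not reported here. PCR copies were not marked in the counts.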

Additional observations from a re-analysis of the deposited data

How the results depend on the processing

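edgeR called 0 genes with TMM factors, DESeq2 size factors, every filter on regions or counts, and both other ways of assigning regions, and 4 lower genes were called by the DESeq2 Wald test. Leaving out 1 line gave 0 to 93 calls for genes, 0 to 345 for single regions, 7 to 2042 for H3K4me3 and 7 to 58 for H3K27me3 at the same genes. The 2042 H3K4me3 calls arose without SA, the 93 and 345 without DLD1 and the 58 without SA. At a 2-fold gap 8 genes were apart in place of 52, and with 5 CPM added 29 were. With 1 line left out the list medians ran from -0.27 to 0.18 (epithelial regulators), -0.22 to 0.043 (transition factors), -0.19 to 0.35 (intestinal identity), -0.33 to 0.27 (intestinal differentiation), -0.030 to 0.26 (Wnt and crypt), -0.091 to 0.20 (TGF-beta and BMP), -0.14 to 0.12 (H3K79 machinery) and -0.21 to -0.017 (genes used by every cell). TMM factors moved the transition factors to -0.086 and the H3K79 machinery to 0.11. The fits were followed at 64 genes, those named by the rule together with IGF2BP2 and the DESeq2 calls. Of these, 12 changed sign with a line left out, their log2 fold changes running from -0.14 to 0.58 (SOX4), -0.47 to 0.0099 (RUNX2), -0.56 to 0.076 (TCF3), -0.69 to 0.33 (HMGA2), -0.19 to 0.56 (CDX2), -0.20 to 0.30 (FOXA1), -0.33 to 0.043 (KRT18), -0.36 to 0.43 (KRT19), -0.31 to 0.27 (KRT8), -0.16 to 0.96 (EPHB2), -1.05 to 0.024 (ITGB4) and -0.066 to 0.65 (MLLT3). The 24 genes described first kept their direction under every alternative run. With a line left out this follows from how they were chosen, since their groups do not overlap. The cause of the shifts in this section was not tested. No paired analysis was possible because the labels give the lines no replicate numbers and the numbers used here only name them.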
